A study of Mus musculus with 14 samples.

Results

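The 2′-5′-oligoadenylate synthetase (OAS) family of the mouse was followed across microglia sorted from retina. Its members were chosen by gene symbol, as the 8 genes Oas1a, Oas1b, Oas1c, Oas1g, Oas2, Oas3, Oasl1 and Oasl2, out of 35735 genes in the deposited series table. The 14 libraries formed 4 groups of APOE E3/E3 or APOE E4/E4 mice aged 12 weeks: APOE4 with microbead injection (n = 3), APOE3 with microbead injection (n = 3), APOE4 with sham injection (n = 4) and APOE3 with sham injection (n = 4). Microbeads block the outflow of fluid from the eye and serve as a glaucoma model. Each library held cells of 1 retina, sorted as Fcrls+, CD11b+ and Ly6c- by their surface antigens. Whether retinas came from separate mice, whether 12 weeks is the age at injection or at collection, and the time after injection are not given in the sources used here, so p-values measure only the spread between these samples.

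OAS enzymes bind double-stranded RNA and make short oligoadenylates with 2′-5′ bonds. These act as messengers of an antiviral response. OAS genes are classic targets of type I interferon, whose receptor signals through transcription factors that include Stat2 and Irf9 to a promoter element called the interferon-stimulated response element. Among the members, Oas1a and Oas1g are small synthetases with a single catalytic unit, Oas2 and Oas3 carry repeated units, and Oasl1 and Oasl2 carry ubiquitin-like domains. In the mouse, Oasl2 makes oligoadenylates, whereas Oasl1 lacks that activity and limits translation of Irf7. Oas1b is known for resistance to flaviviruses, and common laboratory strains carry a truncated form of it.

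All 8 members lie on chromosome 5 (GRCm38, GENCODE M21). Oas2, Oas3, Oas1c, Oas1b, Oas1g and Oas1a fall within chr5:120730333-120907521, a stretch of 177.2 kb, and Oasl2 and Oasl1 within chr5:114896936-114937915, a stretch of 41.0 kb. RefSeq promoter windows (GRCm38.p6, 250 bases before to 50 after the start) matched 6 of the 8 members by symbol. They were searched on both strands for the core of the interferon element, spelled here as 2 GAAA words with any 2 bases (NN) between them. It was present in 4 of the 6 windows, and in 3.44% of all 32851 windows of that length. The 4 windows are printed 5′ to 3′ along the gene, with the matched bases in capitals, because the genes they belong to can be set beside the levels below.
Oas1a: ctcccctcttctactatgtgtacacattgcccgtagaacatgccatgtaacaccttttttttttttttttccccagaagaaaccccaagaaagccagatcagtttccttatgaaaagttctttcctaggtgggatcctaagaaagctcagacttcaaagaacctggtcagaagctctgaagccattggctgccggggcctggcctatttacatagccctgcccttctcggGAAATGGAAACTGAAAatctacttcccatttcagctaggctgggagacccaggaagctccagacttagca
Oas1g: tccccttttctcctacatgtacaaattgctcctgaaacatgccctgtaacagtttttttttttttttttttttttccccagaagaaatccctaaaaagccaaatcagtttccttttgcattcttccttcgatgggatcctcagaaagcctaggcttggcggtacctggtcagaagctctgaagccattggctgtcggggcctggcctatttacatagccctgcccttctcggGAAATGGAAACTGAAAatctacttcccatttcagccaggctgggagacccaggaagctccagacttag
Oas1c: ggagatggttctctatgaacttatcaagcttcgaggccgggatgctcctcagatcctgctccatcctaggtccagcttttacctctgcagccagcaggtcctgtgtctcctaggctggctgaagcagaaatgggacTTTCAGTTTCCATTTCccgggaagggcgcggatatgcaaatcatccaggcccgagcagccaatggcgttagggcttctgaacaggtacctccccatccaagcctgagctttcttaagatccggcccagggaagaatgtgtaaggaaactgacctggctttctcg
Oas3: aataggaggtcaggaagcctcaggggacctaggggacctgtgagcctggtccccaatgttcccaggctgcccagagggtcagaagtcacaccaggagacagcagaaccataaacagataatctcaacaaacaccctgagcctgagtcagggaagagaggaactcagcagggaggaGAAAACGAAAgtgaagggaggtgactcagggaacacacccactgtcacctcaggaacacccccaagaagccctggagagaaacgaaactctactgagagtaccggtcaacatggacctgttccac
These windows lie on the minus strand at chr5:120907476-120907775 (Oas1a), chr5:120887564-120887863 (Oas1g), chr5:120812465-120812764 (Oas1c) and chr5:120777610-120777909 (Oas3). Oas1a and Oas1g each held 2 overlapping matches just before the start, at bases -20 to -11 and -14 to -5 in Oas1a and at -18 to -9 and -12 to -3 in Oas1g. In Oas1c, 2 overlapping matches lay on the opposite strand at -114 to -105 and -108 to -99. This window also covers the start of Oas1b, a plus-strand gene that begins at base 120812635 in GENCODE M21. Counted from that start, the same letters lie on the strand of Oas1b at -16 to -7 and -22 to -13. More than 1 match was held by 0.225% of all windows. Oas3 held 1 match, at -75 to -66. The windows of Oasl1 and Oasl2 held these letters nowhere, and Oas2 and, for a window of its own, Oas1b are named only. For comparison, 16 of the 35 windows of other interferon-stimulated effector genes held a match.

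Libraries held 453429 to 730134 estimated reads, of which 37.2% to 63.0% fell on 8 genes taken here as repeats. They were picked by a large share of reads together with a predicted-gene or clone name or a pseudogene type. No repeat annotation was compared with them. Microglial markers summed to 13601 to 15960 CPM, which are reads scaled to library size with TMM factors, for APOE4 microbead, 6687 to 11310 for APOE3 microbead, 13372 to 16268 for APOE4 sham and 13608 to 18634 for APOE3 sham, and Fcrls was read in every group. Of the 10 monocyte markers, Ly6c2, the gene of a sort antigen, had 17 reads in all. Some others had more: in APOE3 microbead Fn1 had 1017 reads, Ccr2 150 and Chil3 147, and all 10 are given below. Rod photoreceptor markers summed to 209 to 607 CPM in APOE4 microbead and 140 to 649 in APOE3 microbead. In APOE4 sham they summed to 305 to 1475 CPM and in APOE3 sham to 225 to 1779. B cell markers summed to 162 to 248, 106 to 144, 246 to 336 and 286 to 315 CPM in the same order of groups. The only Apoe gene among the transcripts is the mouse gene, with a total of 8 reads across the APOE4 microbead libraries, 27 reads across the APOE3 microbead ones, 5 reads across APOE4 sham libraries and 7 reads across APOE3 sham ones, so it does not check the genotype labels. In bulk RNA, fewer cells that express a gene and less RNA per cell cannot be told apart.

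Levels of different genes are compared as TPM, a transcript abundance scaled for length and depth. Over the 14 libraries Oasl2 averaged 8.35 ± 8.02 TPM (SD) and Oas1a 7.52 ± 6.22 TPM. Oas1g followed with 4.61 ± 4.54 TPM, Oas2 with 4.21 ± 5.27 TPM, Oas1b with 2.77 ± 2.15 TPM and Oasl1 with 2.37 ± 2.38 TPM. Oas3 averaged 0.934 ± 0.862 TPM and Oas1c 0.344 ± 0.395 TPM. The SDs overlap between each gene and its neighbour in this order. In both microbead groups and in APOE3 sham Oasl2 had the highest mean, and in APOE4 sham Oas1a did, at 6.50 ± 2.70 TPM against 4.22 ± 2.67 TPM for Oasl2 (SD, n = 4). Oas1c was last in all 4 groups, at 0.662 ± 0.731 TPM in APOE4 microbead, 0.385 ± 0.048 TPM in APOE3 microbead, 0.158 ± 0.315 TPM in APOE4 sham and 0.260 ± 0.245 TPM in APOE3 sham. The other Oas1 paralogs were close to silent, with 2 reads over all libraries for Oas1d, 5 for Oas1e, 9 for Oas1f and 12 for Oas1h.

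The first question is what microbead injection did to these genes in each genotype. Oas2 had the largest log2 fold change of the 7 members tested in APOE4, in APOE3 and in their average. It stood at 36.3, 156 and 238 CPM in APOE4 microbead, against 25.1, 8.28, 7.11 and 7.54 CPM in APOE4 sham. In APOE3 microbead it stood at 97.2, 105 and 47.9 CPM, against 6.87, 15.8, 10.2 and 8.40 CPM in APOE3 sham. No microbead library of either genotype reached down to a sham library. Oas2 rose in APOE4, with a log2 fold change of 3.57 ± 0.58 (SE, edgeR quasi-likelihood test, adjusted p = 0.0271), and in APOE3, with 3.02 ± 0.61 (adjusted p = 0.00864). Averaged over both genotypes the change was 3.29 ± 0.42 (adjusted p = 0.000412). The call in APOE4 was lost when any of 7 of the 14 libraries was left out (APOE4 microbead 2 or 3, APOE4 sham 2, 3 or 4, APOE3 sham 3 or 4), with adjusted p of 0.0572 to 0.141, and the call in APOE3 was lost without APOE3 microbead 2 (adjusted p = 0.0587). The averaged call was kept without each of the 14.

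**Figure D1:**
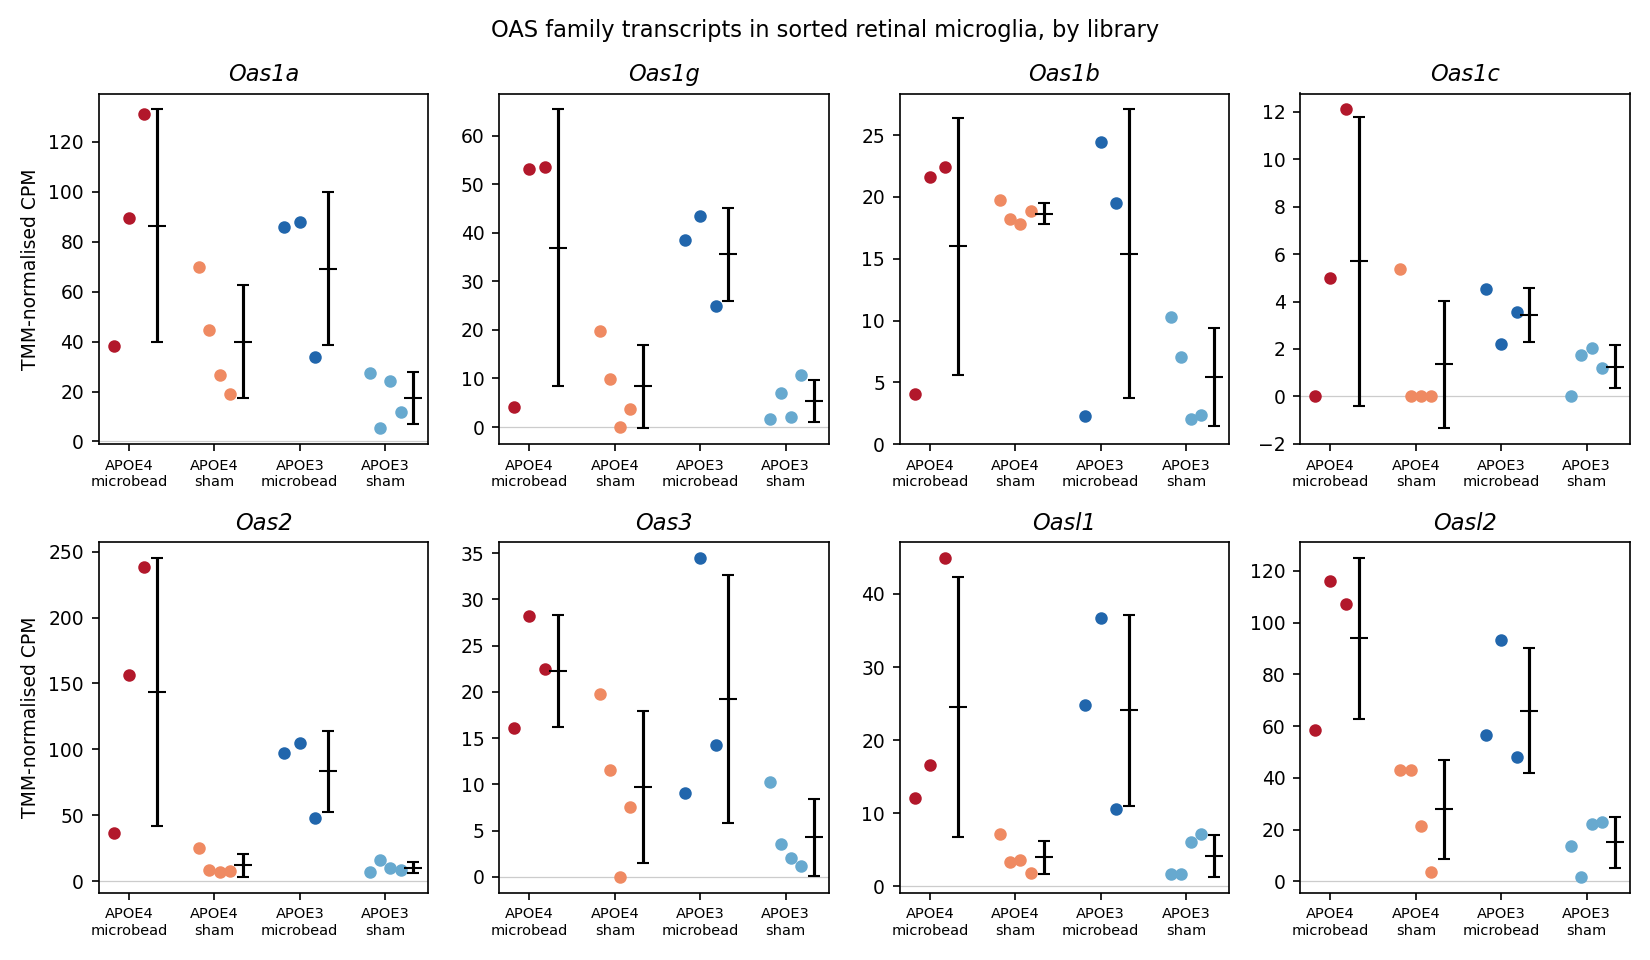
Level of each of the 8 OAS genes in TMM-normalised CPM, one dot per library, with the group mean and SD as black bars; groups run from APOE4 microbead to APOE3 sham. Every microbead dot of Oas2 lies above every sham dot of its genotype (36.3 CPM or more against at most 25.1 CPM in APOE4), whereas the Oas1b dots of the APOE4 groups overlap.

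The OAS-like genes also separated by injection. Oasl1 stood at 12.1, 16.6 and 44.9 CPM in APOE4 microbead, against 7.18, 3.31, 3.56 and 1.89 CPM in APOE4 sham. In APOE3 microbead it stood at 24.9, 36.7 and 10.7 CPM, against 1.72, 1.76, 6.09 and 7.20 CPM in APOE3 sham. Neither pair of groups overlapped, although each sham library held only 1 to 6 reads. Oasl1 rose in APOE3 (log2 fold change 2.45 ± 0.63, adjusted p = 0.0167) and in the average (2.51 ± 0.45, adjusted p = 0.00103), and in APOE4 it had 2.57 ± 0.65 without passing (adjusted p = 0.119). Without APOE3 microbead 2, APOE3 sham 1 or APOE3 sham 2 the Oasl1 call in APOE3 was lost, with adjusted p of 0.0541 to 0.230. With the effective transcript lengths as offsets both Oasl1 calls were lost, at 1.65 ± 0.76 in APOE3 (adjusted p = 0.381) and 1.89 ± 0.54 in the average (adjusted p = 0.0740).

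Oasl2, the mouse OAS-like gene with synthetase activity, stood at 58.5, 116 and 107 CPM in APOE4 microbead, against 43.1, 43.04, 21.3 and 3.77 CPM in APOE4 sham. In APOE3 microbead it stood at 56.5, 93.5 and 47.9 CPM, against 13.7, 1.76, 22.3 and 22.8 CPM in APOE3 sham. Its groups did not overlap in either genotype. The log2 fold change was 1.74 ± 0.54 in APOE4 (adjusted p = 0.387) and 2.11 ± 0.58 in APOE3 (adjusted p = 0.0511), neither of which passed. Averaged over genotypes Oasl2 rose by 1.93 ± 0.40 (adjusted p = 0.0106), and that call was kept without each of the 14 libraries.

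The small synthetases Oas1a and Oas1g share much of their sequence: 68.7% of the 31-base words of Oas1a transcripts also occur in Oas1g, and 54.6% of those of Oas1g in Oas1a, so the split of reads between them is uncertain. Oas1a stood at 38.3, 89.7 and 131 CPM in APOE4 microbead, against 70.0, 44.7, 26.7 and 18.9 CPM in APOE4 sham. In APOE3 microbead it stood at 85.9, 87.9 and 33.7 CPM, against 27.5, 5.27, 24.4 and 12.0 CPM in APOE3 sham. The APOE3 groups did not overlap, while APOE4 microbead 1 lay among the APOE4 sham libraries. Oas1g stood at 4.04, 53.1 and 53.6 CPM in APOE4 microbead, against 19.7, 9.93, 0 and 3.77 CPM in APOE4 sham. For APOE3 it stood at 38.4, 43.4 and 24.9 CPM with microbeads, against 1.72, 7.02, 2.03 and 10.8 CPM with sham injection. Again the APOE3 groups stood apart and APOE4 microbead 1 fell within the sham range.

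Neither gene passed within a genotype. Oas1a had a log2 fold change of 1.11 ± 0.50 in APOE4 (adjusted p = 0.753) and 2.03 ± 0.56 in APOE3 (adjusted p = 0.0501), and Oas1g had 2.13 ± 0.76 in APOE4 (adjusted p = 0.511) and 2.57 ± 0.79 in APOE3 (adjusted p = 0.0796). In the average both rose, Oas1a by 1.57 ± 0.38 (adjusted p = 0.0259) and Oas1g by 2.35 ± 0.55 (adjusted p = 0.0203). With the reads of Oas1a and Oas1g summed, which removes the question of the split between them, the pair rose in APOE3 (2.21 ± 0.56, adjusted p = 0.0358) and in the average (1.78 ± 0.38, adjusted p = 0.0156), and had 1.35 ± 0.51 in APOE4 (adjusted p = 0.609). Some libraries decided the averaged calls: that of Oas1a was lost without APOE4 microbead 2 or 3, APOE3 microbead 1 or 2, APOE4 sham 3 or APOE3 sham 4 (adjusted p of 0.0552 to 0.0892), and that of Oas1g without APOE4 microbead 2 or 3 or APOE3 microbead 2 (0.0610 to 0.0627).

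Oas3, whose human counterpart makes long oligoadenylates, was low. It stood at 16.1, 28.2 and 22.5 CPM in APOE4 microbead, against 19.7, 11.6, 0 and 7.54 CPM in APOE4 sham. In APOE3 microbead it stood at 9.05, 34.5 and 14.2 CPM, against 10.3, 3.51, 2.03 and 1.20 CPM in APOE3 sham. The groups overlapped in both genotypes. Its log2 fold change was 1.19 ± 0.66 in APOE4 (adjusted p = 0.838) and 2.25 ± 0.73 in APOE3 (adjusted p = 0.0736). Oas3 rose in the average, by 1.72 ± 0.49 (adjusted p = 0.0404). Leaving out any of 9 libraries ended that call: APOE4 microbead 1, 2 or 3, APOE3 microbead 2, APOE4 sham 2 or 4, or APOE3 sham 2, 3 or 4 (adjusted p of 0.0547 to 0.267). With the length offsets Oas3 had 1.16 ± 0.55 in the average (adjusted p = 0.415).

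Oas1b was not called in any microbead comparison. It stood at 4.04, 21.6 and 22.5 CPM in APOE4 microbead, against 19.7, 18.2, 17.8 and 18.9 CPM in APOE4 sham. In APOE3 microbead it stood at 2.26, 24.5 and 19.5 CPM, against 10.3, 7.02, 2.03 and 2.40 CPM in APOE3 sham. The 4 APOE4 sham libraries were almost level, at only 9.9 to 11.3 reads each, and a single low library stood in each microbead group. Its log2 fold change was -0.19 ± 0.58 in APOE4 (adjusted p = 0.993), 1.59 ± 0.65 in APOE3 (adjusted p = 0.205) and 0.70 ± 0.43 in the average (adjusted p = 0.531). The 95% interval of the APOE4 value ran from -1.38 to 1.00.

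Oas1c was not tested, because no library reached the level that the filter asks for. It had 10 reads over the APOE4 microbead libraries against 3 over APOE4 sham, a depth-scaled ratio of 4.48 (exact 95% interval 1.15 to 25.3, counting error only). By library these were 0, 3 and 7 reads against 3, 0, 0 and 0. The APOE4 groups thus overlapped, and the interval leaves out the spread between libraries. With APOE3 it had 6 reads over the microbead libraries against 3 over sham, a ratio of 2.60 (0.556 to 16.1). By library these were 2, 2 and 2 reads against 0, 1, 1 and 1. An antisense gene, Gm43069, overlaps Oas1c over 5430 bases, and Gm43068 overlaps Oas2 on the opposite strand over 1273 bases. These overlaps are of whole gene spans, introns included, and the part that lies in exons was not measured. Whether counting used strand is not given in the sources used here, so any reads of shared exon bases cannot be told apart.

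**Figure D2:**
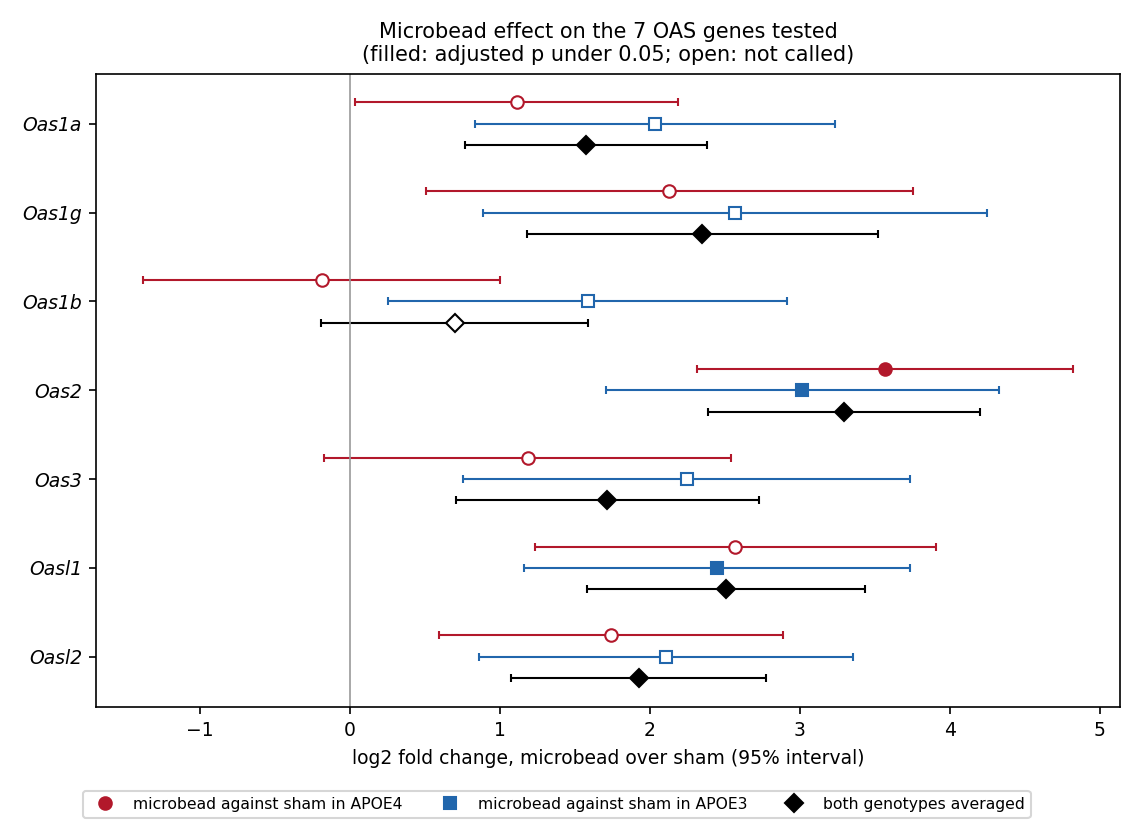
Log2 fold change, microbead over sham, of the 7 OAS genes tested, with 95% intervals, for APOE4 (red circles), APOE3 (blue squares) and the average (black diamonds); filled marks have an adjusted p under 0.05. Oas2 is filled in all 3 comparisons (3.57, 3.02 and 3.29), Oasl1 in APOE3 and the average, and Oas1b in none.

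In counts, 1 of the 7 members tested was called higher in APOE4 (Oas2) where 0.197% of the 7609 genes tested were, 2 in APOE3 (Oas2 and Oasl1) where 3.54% were, and 6 in the average (all but Oas1b) where 3.27% were. No member was called lower in APOE4, APOE3 or the average, where 0.0263%, 1.67% and 1.35% of genes were. The median log2 fold change of the 7 was 1.74 in APOE4, 2.25 in APOE3 and 1.93 in the average, beside medians over all genes tested within 0.02 of 0. Every microbead library lay above every sham library for 3 members in APOE4 (Oas2, Oasl1 and Oasl2), as for 5.03% of genes, and for 5 in APOE3 (those and Oas1a and Oas1g), as for 7.57% of genes. These counts are not a sample of the family, since the filter asks for about 16.1 CPM before scaling in at least 3 libraries: Oasl1 reached it in 3 microbead and 0 sham libraries, Oas3 in 3 and 1, Oas1g in 5 and 1, and Oas2 in 6 and 1. On the TPM scale no member was called in any comparison, where with a pseudocount of 1 the genes called numbered 18 of 12778 in the average, 47 in APOE3 and 3 in APOE4, the averaged log2(TPM + 1) change being 1.89 ± 0.40 for Oas2 and 1.90 ± 0.44 for Oasl2.

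The overlap of groups also depended on the unit. In TPM, APOE4 microbead lay wholly above APOE4 sham for 1 member, Oasl2, as for 0.728% of the 12778 genes with at least 1 TPM in at least 3 libraries. APOE3 microbead lay wholly above APOE3 sham for 4 members, Oas1a, Oas1g, Oas2 and Oasl2, as for 2.57% of those genes. Oas2 in APOE4 is an example of the difference. It had 1.86, 10.8 and 17.4 TPM in APOE4 microbead, against 2.51, 0.722, 0.649 and 1.24 TPM in APOE4 sham, so that APOE4 microbead 1 fell within the sham range although its CPM did not.

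TPM depends on which transcript the reads were assigned to, and the OAS reads were split among several. Oas2-202, a protein-coding transcript of Oas2, took 122.3 of 249.8 Oas2 reads in APOE4 microbead and 36.8 of 164 in APOE3 microbead. It took 0 of 52 over both sham groups, whose libraries held only 4 to 14 Oas2 reads each. Since single libraries could have all or none of these reads assigned to 1 form, the 0 sets no limit on the share in sham. In APOE4 microbead 1 and APOE3 microbead 3 no read was assigned to the main form Oas2-201, whereas in APOE3 microbead 1 none was assigned to Oas2-202. Oasl1-202 took 32 of 42 Oasl1 reads in APOE4 microbead and 4 of 9 in APOE4 sham, against 0 of 50 in APOE3 microbead and 0 of 11 in APOE3 sham. No library had Oasl1 reads on both Oasl1-201 and Oasl1-202, and in APOE4 sham 3 and APOE3 sham 1, 2 and 4 they went to other transcripts. The estimates are those of the quantifier and hold few reads, and no test was made on them.

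Several members had a large share of their reads on transcripts that are annotated as not making the full protein. Oasl2-205, a target of nonsense-mediated decay by annotation, took 49.6% of all Oasl2 reads against 28.7% for the coding Oasl2-201. Oas1g-203, also annotated for decay, took 61.0% of Oas1g reads. Its share was 65.2% in APOE4 microbead against 16.6% in APOE4 sham, and 66.1% in APOE3 microbead against 74.2% in APOE3 sham. The sham shares rest on few reads, 18.6 Oas1g reads in APOE4 sham and 15.1 in APOE3 sham. Oas1g-203 had 3.1 of them in APOE4 sham, all from APOE4 sham 2, and 3.9 and 7.3 in APOE3 sham 2 and 4. With the uncertain split from Oas1a, these shares show no change of transcript, and none was tested. For Oas1b, whose gene is annotated as a polymorphic pseudogene, 79.3% of reads were assigned to Oas1b-203, the pseudogene form. That share was 90.3% in APOE4 microbead against 97.1% in APOE4 sham, and 61.5% in APOE3 microbead against 45.3% in APOE3 sham, where the coding Oas1b-201 took 54.7%. APOE3 sham held only 13.4 Oas1b reads, however. Its Oas1b-203 reads, 6.06, all came from APOE3 sham 1, and Oas1b-201 had 3.93, 1.44 and 1.96 reads in APOE3 sham 2, 3 and 4. So few reads do not tell which form prevailed there. Oas3-201, the coding form, took 90.2% of Oas3 reads, and Oas1a has 1 annotated transcript.

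**Figure D3:**
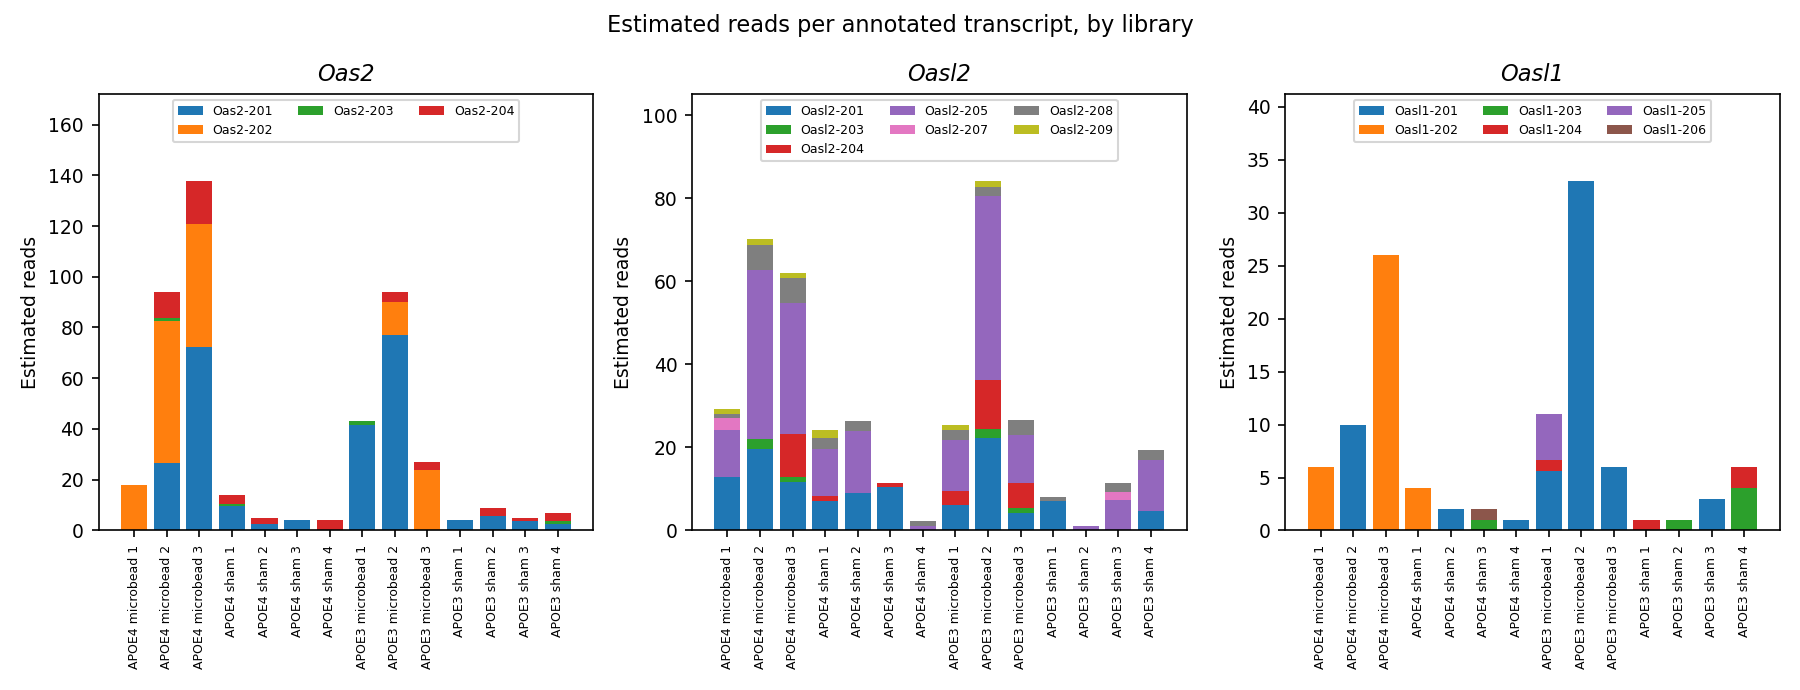
Estimated reads per annotated transcript of Oas2, Oasl2 and Oasl1 in each library, stacked so that the bar height is the gene's reads. The orange part of the Oas2 bars (Oas2-202) is present in 5 of the 6 microbead libraries and in 0 of the 8 sham libraries, and no Oasl1 bar holds both Oasl1-201 and Oasl1-202.

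The next question is whether the microbead effect differed between genotypes. For the 7 members tested the interaction, the APOE4 effect minus the APOE3 effect, ran from -1.77 ± 0.87 for Oas1b (unadjusted p = 0.0514, adjusted p = 0.616) to 0.55 ± 0.92 for Oas2 (adjusted p = 0.958). None was called by edgeR, where 0.092% of all genes tested were, or by limma. DESeq2 gave no member an adjusted p here. At an unadjusted p under 0.05 edgeR had 0 of the 7 members and 8.19% of genes. Intervals were wide: the 95% interval for Oas2 ran from -1.43 to 2.53 and that for Oas1b from -3.56 to 0.01. The Oas2 value was close to 0 (-0.02) without APOE4 microbead 3. The interaction was above 0 for 2 of the 7 members (median -0.44), and for 5 with the summed level of 10 monocyte markers as a covariate (median 0.37) or without the 2 APOE3 microbead libraries richest in them (median 0.12). For Oas1a it was -0.92 ± 0.76, 0.37 ± 1.08 and 0.12 ± 1.03 in those 3 fits. In the last fit only APOE3 microbead 3 was left of its group, assumed to vary like the other groups. In the fit with the covariate, the monocyte sum cannot be told apart from injection in APOE3.

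Among microbead libraries the genotypes overlapped for every member. Of all genes tested, 7.36% had all APOE4 above all APOE3 libraries, and 7.19% had all APOE4 below all APOE3 libraries. The largest difference in size, APOE4 over APOE3, was that of Oas2, at 144 ± 102 CPM in APOE4 microbead and 83.3 ± 30.8 CPM in APOE3 microbead (SD, n = 3 each), a log2 difference of 0.79 ± 0.51 (adjusted p = 0.714, 95% interval -0.31 to 1.88). None of the 7 was called by edgeR, where 0.578% of genes were, or by limma, and 0 had an unadjusted p under 0.05 in edgeR, where 9.8% of genes did. DESeq2 gave 3 of the 7 an adjusted p and called none of these. With the monocyte covariate the Oas2 difference was 2.16 ± 0.93 (edgeR, unadjusted p = 0.0354), and the median of the 7 was 1.26, against 0.14 without it. That fit called 0 of 7609 genes, and 267 genes, with 1 of the 7 members, had an unadjusted p under 0.05. The monocyte sums were 46.4 to 193 CPM in APOE4 microbead and 277 to 1484 CPM in APOE3 microbead. Genotype and the monocyte sum therefore cannot be told apart among microbead libraries. Without the 2 libraries richest in monocyte markers the Oas2 difference was 1.59 ± 0.84 and the median 0.98. Only APOE3 microbead 3 was then left of its group, assumed to vary like the other groups. It had the lowest OAS sum of the APOE3 microbead libraries, 202 CPM.

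Among sham libraries Oas1b was the member that stood apart, at 18.6 ± 0.849 CPM in APOE4 sham and 5.44 ± 3.96 CPM in APOE3 sham (SD, n = 4 each). These levels rest on 9.9 to 11.3 reads per library in APOE4 sham and 1.4 to 6.1 in APOE3 sham. With so few reads the small SD in APOE4 sham does not show a steady level. All 4 APOE4 libraries lay above all 4 APOE3 libraries, as for 2.16% of genes. The log2 difference was 1.77 ± 0.61, and with an unadjusted p of 0.00764 and an adjusted p of 0.962 it did not pass. Oas1a averaged 40.05 ± 22.7 CPM in APOE4 sham and 17.3 ± 10.4 CPM in APOE3 sham, a log2 difference of 1.25 ± 0.56 (unadjusted p = 0.0432, adjusted p = 0.962). In TPM both Oas1a and Oas1b lay wholly above APOE3 sham in APOE4 sham, as 1.81% of genes did. The other 5 members ranged from -0.12 ± 0.75 for Oasl1 to 1.20 ± 0.76 for Oas3. No member was called by edgeR, DESeq2 or limma, where edgeR called 0.0131% of genes, and the 2 with an unadjusted p under 0.05 stand beside 4.4% of genes.

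The summed monocyte markers were high in the APOE3 microbead group. The 10 markers summed to 46.4, 193 and 72.6 CPM in APOE4 microbead, 1484, 689 and 277 CPM in APOE3 microbead, 48.0 to 59.2 CPM in APOE4 sham and 63.0 to 66.0 CPM in APOE3 sham. In APOE3 microbead Fn1, a matrix protein gene, gave 1017 of these reads, against 58 in APOE3 sham. The sum in APOE3 microbead thus rests mostly on Fn1. For the same groups Ccr2 had 150 against 28, Chil3 147 against 4, Ms4a4c 35 against 13, Plac8 29 against 8 and S100a4 27 against 0. F13a1 had 13 against 34, Vcan 7 against 8, the antigen gene Ly6c2 4 against 6 and Ly6c1 2 against 2. Ly6c1 had 0 reads in APOE4 microbead. The summed OAS level was 170, 487 and 632 CPM in APOE4 microbead, 319, 427 and 202 CPM in APOE3 microbead, 209.9, 139, 76.5 and 62.2 CPM in APOE4 sham and 72.1, 43.9, 71.1 and 66.0 CPM in APOE3 sham. The library with the highest OAS sum, APOE4 microbead 3, had a monocyte sum of 72.6 CPM, above every sham library. The library with the highest monocyte sum, APOE3 microbead 1, had a lower OAS sum than both APOE4 microbead 2 and 3. Within each microbead group, the library with the lowest monocyte sum also had the lowest OAS sum (APOE4 microbead 1 and APOE3 microbead 3). Whether monocyte content accounts for these levels was not tested.

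Without APOE3 microbead 1 and 2, the libraries richest in monocyte markers, no member was called in APOE3, where 34 of 7609 genes still were, and 1 in the average, where 92 were; with all libraries 396 and 352 genes were called. Oas2 then had a log2 fold change of 2.22 ± 0.90 in APOE3 (adjusted p = 0.488) with a single microbead library left, assumed to vary like the other groups, and 2.89 ± 0.55 in the average (adjusted p = 0.0287). With the monocyte sum as a covariate no member was called in any of the 3 microbead comparisons, and over all 7609 genes 5 were called in APOE4, 1 in APOE3 and 8 in the average. The values were then 3.21 ± 0.57 for Oas2 and 2.42 ± 0.70 for Oasl1 in APOE4, and 1.40 ± 1.11 for Oas2 and 1.63 ± 1.40 for Oasl1 in APOE3. In APOE3 the monocyte sum and the injection cannot be told apart, since every microbead library exceeded every sham library in it.

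**Figure D4:**
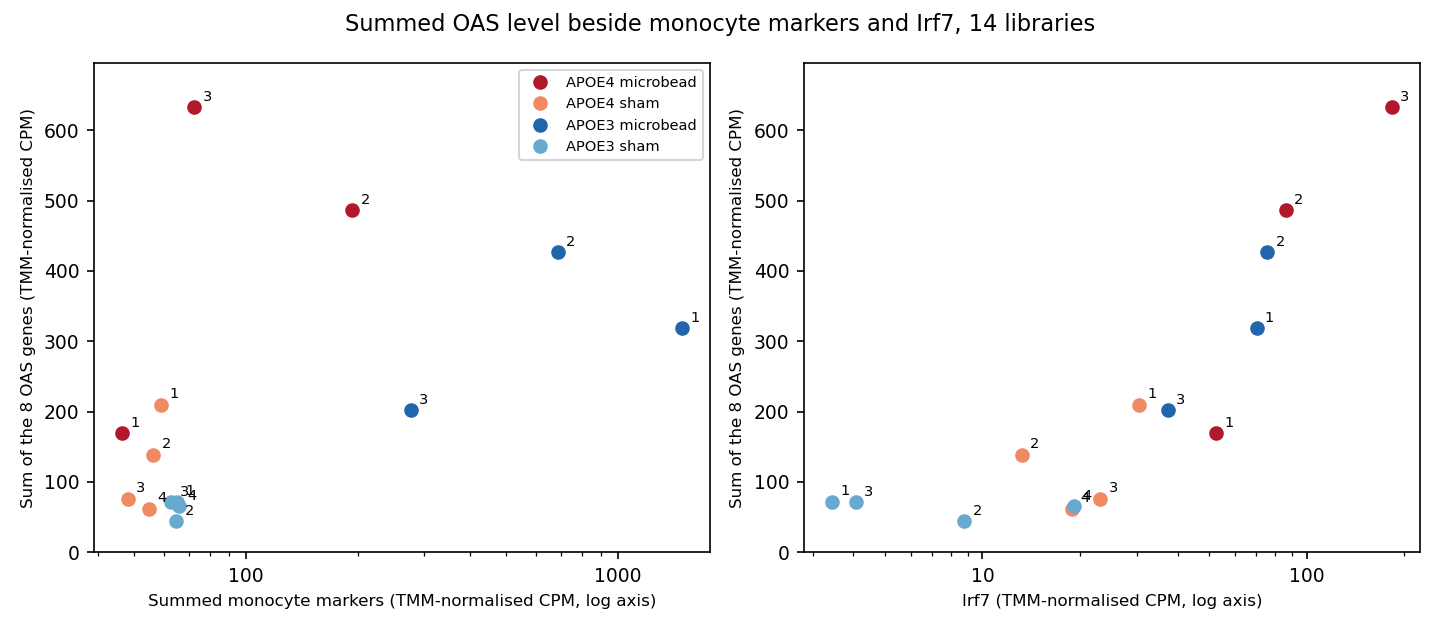
Sum of the 8 OAS genes (y axis, TMM-normalised CPM) beside the summed monocyte markers (left) and Irf7 (right), one dot per library with its replicate number; the x axes are logarithmic. APOE4 microbead 3 has the highest OAS sum, 632 CPM, at a monocyte sum of 72.6 CPM, and also the highest Irf7, 183 CPM. Within each microbead group the library with the lowest monocyte sum also has the lowest OAS sum.

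Other genes of the pathway were read from lists, which were chosen with earlier results of these data known. Beside the counts from these lists, 3.27% of all genes tested were called higher in the average, 3.54% in APOE3 and 0.197% in APOE4. In the average 1.35% of genes were called lower. Pde12, which degrades oligoadenylates, had an averaged log2 fold change of -0.32 ± 0.40 (adjusted p = 0.830). Ligands were at the limit of the depth: 6 of 10 interferon genes had a read, Ifnb1 had 2 reads, both in APOE3 microbead, and none of the 10 could be tested.

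Receptors and signalling genes changed in part. Averaged over genotypes, 4 of 15 tested were called higher and 0 lower, with a median log2 fold change of 0.25 beside -0.01 over all genes. Irf7, the factor that amplifies interferon transcription, averaged 107 ± 67.8 CPM in APOE4 microbead against 21.4 ± 7.27 CPM in APOE4 sham, and 61.0 ± 20.7 CPM in APOE3 microbead against 8.87 ± 7.28 CPM in APOE3 sham. It rose in APOE4 (2.33 ± 0.44, adjusted p = 0.0352), in APOE3 (2.63 ± 0.50, adjusted p = 0.00296) and in the average (2.48 ± 0.33, adjusted p = 0.000137). Stat2 rose by 1.04 ± 0.19 in the average (adjusted p = 0.000924), and Usp18, a brake on the receptor, by 1.80 ± 0.42 (adjusted p = 0.0149). In APOE3 2 of 15 were called (Irf7 and Stat2) and in APOE4 1 (Irf7). The APOE4 call of Irf7 was lost in 6 of 14 fits without 1 library (APOE4 microbead 2 or 3, APOE4 sham 2, 3 or 4, or APOE3 sham 2, adjusted p of 0.0600 to 0.217) and the averaged call of Usp18 was lost without APOE4 microbead 3 (adjusted p = 0.0554).

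Of 10 sensors of double-stranded RNA, the molecule that OAS enzymes themselves bind, 2 were called higher in the average and 0 lower (median 0.65). Zbp1, a sensor of nucleic acids in the Z form, rose by 2.06 ± 0.47 (adjusted p = 0.00760), and Trim25, a ubiquitin ligase that acts on RIG-I, by 1.26 ± 0.37 (adjusted p = 0.0498). Zbp1 also rose in APOE3 (2.62 ± 0.67, adjusted p = 0.0170), where it was 1 of 10, and 0 of 10 were called in APOE4, where Tlr3 had 1.18 ± 0.39 (adjusted p = 0.358). Of 7 genes of DNA sensing, 2 were called higher in the average (median 0.12): Trex1, a DNA exonuclease (0.99 ± 0.26, adjusted p = 0.0333), and Samhd1, a nucleotide hydrolase (0.84 ± 0.23, adjusted p = 0.0344). In APOE3 1 of 7, the kinase gene Ikbke, rose (3.70 ± 0.97, adjusted p = 0.0187), with 24.5 ± 4.32 CPM in APOE3 microbead and 1.89 ± 2.20 CPM in APOE3 sham. In APOE4 0 of 7 were called, and Ikbke averaged 0.673 ± 1.17 CPM in APOE4 microbead and 3.99 ± 3.39 CPM in APOE4 sham. Its interaction was -6.07 ± 1.74 (unadjusted p = 0.00160, adjusted p = 0.209), and it passed with no filter on low counts (adjusted p = 0.0454). The averaged call of Zbp1 was lost without APOE3 microbead 2 (adjusted p = 0.0828), and its APOE3 call without APOE3 microbead 2 or APOE3 sham 2 (adjusted p of 0.0565 to 0.274). Trex1 lost its call without APOE4 microbead 2 or 3, APOE3 microbead 1 or 2, APOE4 sham 4 or APOE3 sham 1 or 2 (adjusted p up to 0.106). Samhd1 lost its call without APOE4 microbead 2 or 3, APOE3 microbead 2, APOE4 sham 2, 3 or 4 or APOE3 sham 1, 2 or 3 (up to 0.150), and Trim25 without any library but APOE4 sham 2 or APOE3 sham 4 (up to 0.162). The Ikbke call was lost without APOE3 microbead 1 or 2 or APOE3 sham 1 or 4 (adjusted p of 0.0507 to 0.0993).

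Many interferon-stimulated effectors changed beside the OAS genes. In the average 18 of 30 tested were called higher and 0 lower, with a median log2 fold change of 1.31. Lgals3bp, a secreted galectin-binding protein, averaged 673 ± 330 CPM in APOE4 microbead against 221 ± 68.2 CPM in APOE4 sham, and 496 ± 82.2 CPM in APOE3 microbead against 113 ± 29.0 CPM in APOE3 sham. It rose in the average by 1.87 ± 0.22 (adjusted p = 6.29e-05). Ifi207 and Ifi204, of the HIN-200 family of nucleic acid sensors, rose by 2.51 ± 0.36 (adjusted p = 8.98e-05) and 1.30 ± 0.25 (adjusted p = 0.00243), and Trim30a by 1.04 ± 0.20 (adjusted p = 0.00163); these belong to families with near-identical copies, so their values are uncertain. In APOE3 9 of 30 were called higher (median 1.25) and in APOE4 1 of 30 (median 1.13), which was Lgals3bp (1.61 ± 0.31, adjusted p = 0.0458). That APOE4 call was lost without any of 9 libraries, APOE4 microbead 2 or 3, APOE3 microbead 1 or 3, APOE4 sham 2, 3 or 4 or APOE3 sham 3 or 4 (adjusted p of 0.0572 to 0.170). In the interaction and in both comparisons of genotypes, with the filter, 0 genes of the lists given here were called.

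The members varied together to different degrees. Across the 14 libraries, on log2(CPM + 1) and as a description only, the correlation of a member with the mean of the other tested members was 0.87 for Oas2, 0.86 for Oas1a, 0.81 for Oasl1, 0.79 for both Oas1g and Oasl2, 0.75 for Oas3 and 0.31 for Oas1b. Once group means were removed, it was 0.69 for Oas2, 0.68 for Oas1a, 0.65 for Oas1g, 0.50 for Oasl1, 0.48 for Oas3, 0.44 for Oasl2 and 0.25 for Oas1b. The 6 genes outside the family whose profile was most like the mean of the members, out of 7602 compared, were Lgals3bp (Pearson r = 0.96), Zbp1 (0.95), Stat2 (0.94), Sp100, a nuclear body protein (0.94), and the class I genes H2-K1 (0.91) and H2-D1 (0.91), whose reads may be shared with near copies. The libraries share the injection groups and the depth scaling, which enter these values.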

How the data were processed

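RNA of sorted retinal microglia was measured in 14 libraries of 4 groups. Per the labels' protocols, cells passed a Percoll gradient of 37% over 70%, and 100 to 600 cells per retina were brought to 100 to 300 in 5 µl. Per the submitters' processing notes, Salmon 1.4.0, R 4.0.3, DESeq2 1.30.1 and mm10 were used by the authors. The deposited files hold estimated counts and TPM per transcript, and the deposited series table holds TPM per gene. Transcripts were joined to GENCODE M21 (116023 of 116945 matched without version), and the estimated counts were added up by gene, then rounded to integers. As a check of labels, 99.2% to 99.4% of genes had recomputed TPM within 1% of their own library's column in the series table, against 2.11% or less for another column.

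Genes were filtered with filterByExpr by group (minimum count 10, minimum total 15), leaving 7609 of 28203 with a read. All 14 libraries entered 1 edgeR 4.0.16 quasi-likelihood model (R 4.3.3, robust, TMM scaling) with 4 group means and 6 two-sided contrasts. Adjusted p is Benjamini-Hochberg over all genes tested, and a gene is called below 0.05. Changes are given on the log2 scale with a standard error (SE), levels with a standard deviation (SD). Normalised CPM were computed here from the deposited counts with TMM factors of 0.703 to 1.35. The common biological coefficient of variation was 0.275. Intervals of read ratios are exact (95%), and they cover counting error only. The fit was checked on simulated counts. Alternatives used DESeq2 1.42.0, limma 3.58.1 (voom, and trend on log2(TPM + 1) or log2(TPM + 0.1)), other scalings and filters, effective lengths as offsets, thinning, a monocyte covariate, a replicate block and libraries left out.

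Named genes were all 8 members, up to 4 called genes per list by smallest unadjusted p or up to 2 where none was called, with Ifnb1 added after its values were seen, and the 6 genes most like the members; some genes that this rule names, and 1 list, are not reported here. The members and lists were chosen with earlier results of these data known. A shared replicate number was not taken as a pairing (correlations of deviations from -0.116 to 0.0874). No libraries looked like duplicates: the smallest chi-square per degree of freedom between libraries of a group was 2.12.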

Additional observations from a re-analysis of the deposited data

Results flagged for a closer look

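In the sham groups of 4, the gap between the extreme library and its nearest neighbour was compared with the group's range by Dixon's test, for 16 pairs of a gene and a group. Both values singled out come from APOE4 sham 1. Oas2 had 25.1 CPM there, while the other APOE4 sham libraries lay between 7.11 and 8.28 CPM. Oas1c had 5.38 CPM there, which rests on 3 reads, and 0 in the other 3. With 0 in 3 of 4 libraries the gap equals the range whatever the value, so the Oas1c flag was fixed in advance. Chance alone singles out about 1 in 20 groups of normally distributed values, a rate that does not hold for low counts with zeros. APOE4 sham 1 also had the highest OAS sum of the sham libraries, 209.9 CPM, and the highest Irf7 of them, 30.5 CPM.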

How the results depend on the processing

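Estimates kept their direction more often than their call. In the averaged microbead comparison the members' log2 fold changes were above 0 under every alternative run. Members called higher numbered 6 in the average, 2 in APOE3 and 1 in APOE4, among 249, 269 and 15 of 7609 genes called higher. With limma-voom they numbered 3, 0 and 0, among 218, 254 and 8 genes. On TPM, with a pseudocount of 1 or 0.1 or with no filter on low values, they numbered 0 in all 3 comparisons, as they did with the monocyte sum as a covariate (8, 1 and 4 genes). Without both APOE3 microbead libraries richest in monocyte markers they numbered 1 in the average and 0 in APOE3 (67 and 25 genes). A replicate block gave 2 in the average (Oas2 and Oasl1) and 0 in each genotype (153 genes in the average, 204 in APOE3 and 4 in APOE4), although the numbers only name the samples. DESeq2 called 5 in APOE3 (265 of 7608 genes), the fit on only the libraries compared 5 in APOE3 and 0 in APOE4 (174 and 30 genes), the stricter filter on low counts 4 in APOE3 (255 of 4308), and no filter on low counts 6 in APOE3 and 4 in APOE4 (362 and 44 of 28197). Library totals as the scaling gave 3 in the average (75 genes), and length offsets 4 in the average (122 genes, Oas3 and Oasl1 not called) and 3 in APOE3 (157 genes). Leaving out 1 library gave 3 to 6 in the average, 0 to 4 in APOE3 and 0 to 1 in APOE4. The interaction and both comparisons of genotypes gave 0 under all alternatives run, but DESeq2 gave an adjusted p to 0 of the 7 members for the interaction, to 3 between microbead groups and to 3 in APOE4.

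Among the members' differences given with an error, signs turned for Oas1b in APOE4 (0.02 when thinned to equal depth, and -0.50 to 0.24 with 1 library left out, above 0 without APOE4 microbead 1), the Oas2 interaction (-0.02 to 1.19, below 0 without APOE4 microbead 3), the Oas1a interaction (0.37 with the monocyte covariate and 0.12 without both libraries richest in these markers) and Oasl1 between sham groups (-0.53 to 0.35, with 0.04 and 0.35 without APOE3 sham 3 and 4 and 0.09 without APOE4 sham 4). The cause of these differences was not tested. Under library totals the median averaged change over all genes was -0.14 (log2), and on filtered TPM it was -0.13 to -0.19. Depth limits the family most: 22 reads of Oas1c, 112 of Oasl1 and 112.5 of Oas3 over all 14 libraries.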
